A study of Oryza sativa with 18 samples.

Results

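A set of 6 rice genes, 5 of them known for work in the chloroplast's photosynthetic membranes and 1, cap2, with no role in the tables used, was followed here in leaf sheath on which brown planthoppers, phloem-sucking insects, had fed: PSAG (LOC4337812), PSB28 (LOC4326537), VIPP1, petC (LOC4343570), LHCP (LOC4333359) and cap2 (LOC4331843). They were taken by name, as every probe set that the platform's probe-to-gene table pairs with exactly 1 of these genes, which gave 7 probe sets of the 57381 on the array and 6 of the 17905 genes that have a probe set of their own. The names had been put together with results of these arrays known, and which contrast served for that is not recorded, so every value of the 6 genes is given below as a description, without a p-value. All 7 probe sets passed the filter on dim probe sets.

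Each of the 18 Affymetrix rice arrays held RNA of 1 leaf sheath sample, with 3 labelled biological replicates in each of 6 groups. The groups were NIL-Bph6-RNAi, labelled susceptible, sampled before insects were added (0 h) and when planthoppers had fed for 6 h or 48 h, and NIL-Bph6, labelled resistant, at the same 3 times. By their names both are near-isogenic lines with the planthopper resistance gene Bph6, and NIL-Bph6-RNAi also carries an RNAi construct. All plants were 3 weeks old and grown in a controlled chamber. What promoter drives the construct, how many transformants were made and how many plants went into a sample were not found in the sources used here. The description fields of these samples name other lines and times, and the groups were read from the titles and source names. No insect-free plants stand at 6 h or 48 h, so feeding and elapsed time cannot be told apart.

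The probe set of the targeted gene was not analysed here. Of 64 reporter probe sets, made for sequences used in transgenic plants, 1 lay between 11.85 and 13.15 on all 9 NIL-Bph6-RNAi arrays, against 0.97 to 5.44 on all 9 NIL-Bph6 arrays, and no reporter lay the other way. Of the 18 arrays, 17 matched their own group best, array medians lay between 5.67 and 6.02 on the log2 scale, and replicate 3 of NIL-Bph6-RNAi at 48 h had the lowest mean correlation with the arrays of other groups, 0.903. Green tissue genes were bright everywhere: the summed linear signal of 2 antenna genes outside the 6 was 34929 to 60187 over the NIL-Bph6-RNAi arrays and 40112 to 53882 over the NIL-Bph6 arrays.

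In the thylakoid, light is caught by chlorophyll bound to antenna proteins and passed to photosystem II and photosystem I, which are joined by the cytochrome b6f complex. Most of the antenna proteins and several subunits are encoded in the nucleus, made in the cytosol and imported, so their mRNAs are on an array of polyadenylated RNA. In leaves these mRNAs are among the most abundant, and their levels are known to move with light, the clock, sugars, leaf age and attack by pests.

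Of the 6 genes, 5 had lower group means at 48 h than at 0 h in both lines, and cap2 had higher ones. In NIL-Bph6-RNAi, PSB28, LHCP and VIPP1 fell and cap2 rose between 0 h and 48 h. In NIL-Bph6, PSB28, PSAG, VIPP1 and petC fell. "Fell" and "rose" are used of a gene only where limma's adjusted p, taken over all 32732 probe sets tested, was under 0.05. That made 3 genes lower and 1 higher of 6 in NIL-Bph6-RNAi, where 16.6% of all probe sets tested were called lower and 16.7% higher. In NIL-Bph6 it made 4 lower and 0 higher of 6, where 7.48% were called lower and 8.18% higher. As the genes may have been chosen on these contrasts, nothing is read from those shares. The median change of the 6 genes was -0.37 in NIL-Bph6-RNAi and -0.60 in NIL-Bph6, or -0.43 and -0.67 without cap2, while the median of all probe sets tested was 0.01 and 0.00. In NIL-Bph6-RNAi every 48 h array was below every 0 h array for 4 genes and above for 1, against 22.6% and 23.4% of all probe sets tested. In NIL-Bph6 the arrays were below for 5 genes and above for 0, against 14.6% and 16.1%. In bulk tissue, fewer cells of a type and less RNA per cell cannot be told apart.

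**Figure D1:**
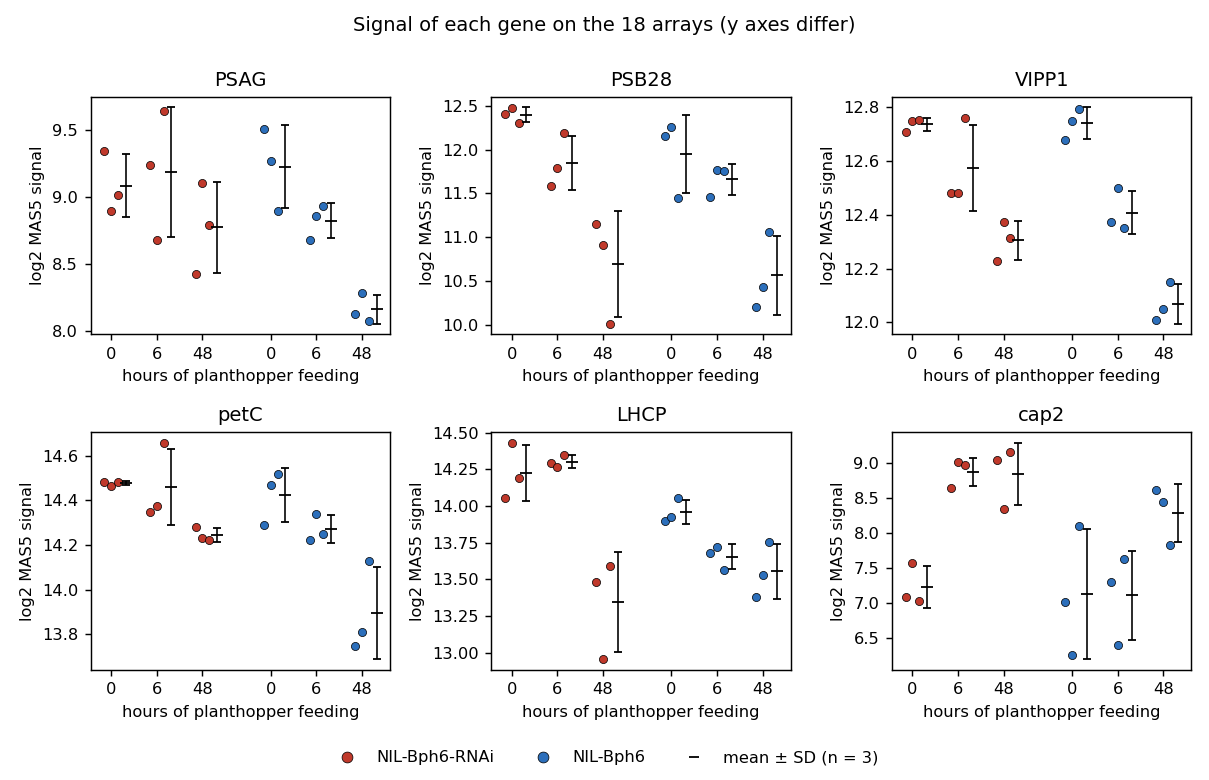
Log2 MAS5 signal (y axis, a different range in each panel) of the 6 genes on each of the 18 arrays, by hours of feeding (x axis), with NIL-Bph6-RNAi in red on the left of each panel and NIL-Bph6 in blue on the right. Short bars are the mean ± SD of 3 arrays; PSB28 reached 10.01 to 11.15 in NIL-Bph6-RNAi and 10.20 to 11.06 in NIL-Bph6 at 48 h, and cap2 is the panel in which 48 h is high.

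PSAG encodes a small subunit of photosystem I that, in Arabidopsis, lies where the antenna attaches. In NIL-Bph6-RNAi its brighter probe set read 9.34, 8.89 and 9.01 at 0 h, 9.24, 8.68 and 9.64 at 6 h, and 8.43, 9.10 and 8.79 at 48 h. In NIL-Bph6 it read 9.51, 9.27 and 8.90 at 0 h, 8.68, 8.86 and 8.93 at 6 h, and 8.13, 8.28 and 8.08 at 48 h. The 3 NIL-Bph6 arrays at 48 h were below every other array of the series, while 2 of the 3 NIL-Bph6-RNAi arrays at 48 h lay within the range of the earlier arrays and the third, at 8.43, was below it. PSAG fell by 1.06 ± 0.23 (SE, n = 3 a group, the error taken from all 6 groups) on the log2 scale in NIL-Bph6 between 0 h and 48 h, which is 2.09-fold. The same difference in NIL-Bph6-RNAi was -0.31 ± 0.23, with overlapping arrays. At 48 h NIL-Bph6-RNAi was higher than NIL-Bph6 by 0.61 ± 0.23, with no overlap; this was not called, but was with quantile normalization (0.72), median centring (0.71) or array weights (0.67) and without NIL-Bph6-RNAi replicate 1 at 48 h (0.78). A second PSAG probe set lay near the array median, with means of 5.14 to 5.99. Its arrays overlapped in all 9 comparisons of a pair of groups, and its 48 h differences from 0 h were -0.10 ± 0.49 in NIL-Bph6-RNAi and -0.85 ± 0.49 in NIL-Bph6.

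PSB28 encodes a protein known in cyanobacteria to help assemble photosystem II. Its signal in NIL-Bph6-RNAi was 12.41, 12.47 and 12.30 at 0 h, 11.58, 11.79 and 12.19 at 6 h, and 11.15, 10.91 and 10.01 at 48 h. In NIL-Bph6 it was 12.15, 12.26 and 11.44 at 0 h, 11.46, 11.76 and 11.76 at 6 h, and 10.20, 10.43 and 11.06 at 48 h. All 6 arrays at 48 h were below all 12 earlier arrays. PSB28 had the widest range of group means of the 6 genes, 1.83. Between 0 h and 48 h it fell by 1.70 ± 0.28 in NIL-Bph6-RNAi, or 3.26-fold, and by 1.39 ± 0.28 in NIL-Bph6, or 2.62-fold. In NIL-Bph6-RNAi the 6 h arrays were already below the 0 h arrays, with a difference of -0.55 ± 0.28 that was not called, and it fell by a further 1.16 ± 0.28 between 6 h and 48 h. That last call was lost without replicate 3 at 48 h, with a difference of -0.82, without replicate 3 at 6 h, with -0.99, and without replicate 2 at 6 h, with -1.19. The 48 h against 6 h difference in NIL-Bph6 was -1.10 ± 0.28, not called, but it was called without replicate 3 at 48 h, at -1.35.

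VIPP1 encodes a membrane-remodelling protein of plastids that thylakoids need to form and to be maintained. It was the steadiest of the 6, with an SD within groups of 0.09. NIL-Bph6-RNAi gave 12.71, 12.75 and 12.75 at 0 h, 12.48, 12.48 and 12.76 at 6 h, and 12.23, 12.37 and 12.31 at 48 h. NIL-Bph6 gave 12.68, 12.75 and 12.79 at 0 h, 12.37, 12.50 and 12.35 at 6 h, and 12.01, 12.05 and 12.15 at 48 h. The lines overlapped at 0 h, with a difference of -0.00 ± 0.09, and did not at 48 h, where NIL-Bph6-RNAi was higher by 0.24 ± 0.09, which was called only with median centring, at 0.33. Between 0 h and 48 h VIPP1 fell by 0.43 ± 0.09 in NIL-Bph6-RNAi, or 1.35-fold, and by 0.67 ± 0.09 in NIL-Bph6, or 1.59-fold. At 6 h it had fallen by 0.33 ± 0.09 in NIL-Bph6. That call ended when any 1 of the 6 arrays was left out, with differences of -0.38 to -0.30. The difference in NIL-Bph6-RNAi at 6 h was -0.16 ± 0.09, with overlapping arrays.

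The petC gene encodes the Rieske iron-sulfur protein, which carries electrons within the cytochrome b6f complex. Its signal in NIL-Bph6-RNAi was 14.48, 14.47 and 14.48 at 0 h, 14.35, 14.38 and 14.66 at 6 h, and 14.28, 14.23 and 14.22 at 48 h. In NIL-Bph6 it was 14.29, 14.47 and 14.52 at 0 h, 14.22, 14.34 and 14.25 at 6 h, and 13.75, 13.81 and 14.13 at 48 h. These values were close to the top of the scale, which ended between 15.06 and 15.43 on the 18 arrays, and whether the probes were near saturation was not tested. The 3 NIL-Bph6 arrays at 48 h were the lowest of the 18. In NIL-Bph6, petC fell by 0.53 ± 0.10 between 0 h and 48 h, or 1.44-fold. Its 48 h against 6 h difference in that line was -0.38 ± 0.10, not called, but it was called without replicate 3 at 48 h, at -0.49. In NIL-Bph6-RNAi the 0 h to 48 h difference was -0.23 ± 0.10, without overlap and not called. It was called when only the compared groups were fitted. At 48 h petC was higher in NIL-Bph6-RNAi than in NIL-Bph6 by 0.35 ± 0.10, or 1.27-fold, a call that ended when NIL-Bph6 replicate 1 or 2 at 48 h, or any of the 3 NIL-Bph6-RNAi arrays at 48 h, was left out (0.27 to 0.36) and under quantile normalization (0.24).

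LHCP encodes a chlorophyll a-b binding protein, the kind that makes up the light-harvesting antenna. In NIL-Bph6-RNAi it read 14.06, 14.43 and 14.19 at 0 h, 14.29, 14.26 and 14.35 at 6 h, and 13.48, 12.96 and 13.59 at 48 h. In NIL-Bph6 it read 13.90, 13.93 and 14.05 at 0 h, 13.68, 13.72 and 13.56 at 6 h, and 13.38, 13.53 and 13.75 at 48 h. NIL-Bph6-RNAi was above NIL-Bph6 on every array at 0 h and at 6 h, whereas the lines overlapped at 48 h. The line difference was 0.27 ± 0.14 at 0 h, 0.65 ± 0.14 at 6 h and -0.21 ± 0.14 at 48 h. Only that at 6 h was called, and it was lost when any 1 of the 6 arrays was left out, with values of 0.60 to 0.68. LHCP fell by 0.88 ± 0.14 in NIL-Bph6-RNAi between 0 h and 48 h, or 1.84-fold, and by 0.96 ± 0.14 between 6 h and 48 h. In NIL-Bph6 the 0 h to 48 h difference was -0.41 ± 0.14, without overlap and not called; it was called without replicate 3 at 48 h, at -0.51. Antenna proteins form a family of similar genes, and reads of its other members by this probe set were not tested.

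The gene named cap2 has no other name or description in the tables used, and no role is given to it here. Its arrays in NIL-Bph6-RNAi read 7.08, 7.57 and 7.03 at 0 h, 8.64, 9.01 and 8.97 at 6 h, and 9.03, 8.34 and 9.15 at 48 h. In NIL-Bph6 they read 7.01, 6.26 and 8.10 at 0 h, 7.29, 6.40 and 7.62 at 6 h, and 8.61, 8.43 and 7.82 at 48 h. It went the other way from the rest: all 6 NIL-Bph6-RNAi arrays under feeding were above the 3 at 0 h. In NIL-Bph6-RNAi cap2 rose by 1.64 ± 0.40 at 6 h, or 3.13-fold, and by 1.61 ± 0.40 at 48 h, or 3.06-fold, both against 0 h. The 6 h call was lost without replicate 1 (1.57) or replicate 3 (1.54) at 0 h and without replicate 2 (1.58) or replicate 3 (1.60) at 6 h. In NIL-Bph6 the difference was -0.02 ± 0.40 at 6 h and 1.16 ± 0.40 at 48 h, neither called. That at 48 h was called, at 1.65, without replicate 3 at 0 h, the array at 8.10, and at 1.40 without replicate 3 at 48 h. At 6 h NIL-Bph6-RNAi was above NIL-Bph6 on every array, by 1.77 ± 0.40 or 3.41-fold. This was called with all arrays and without NIL-Bph6 replicate 3, and not when any of the other 5 arrays was left out (1.42 to 1.88). Its SD within groups, 0.54, was the largest of the 6 genes.

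**Figure D2:**
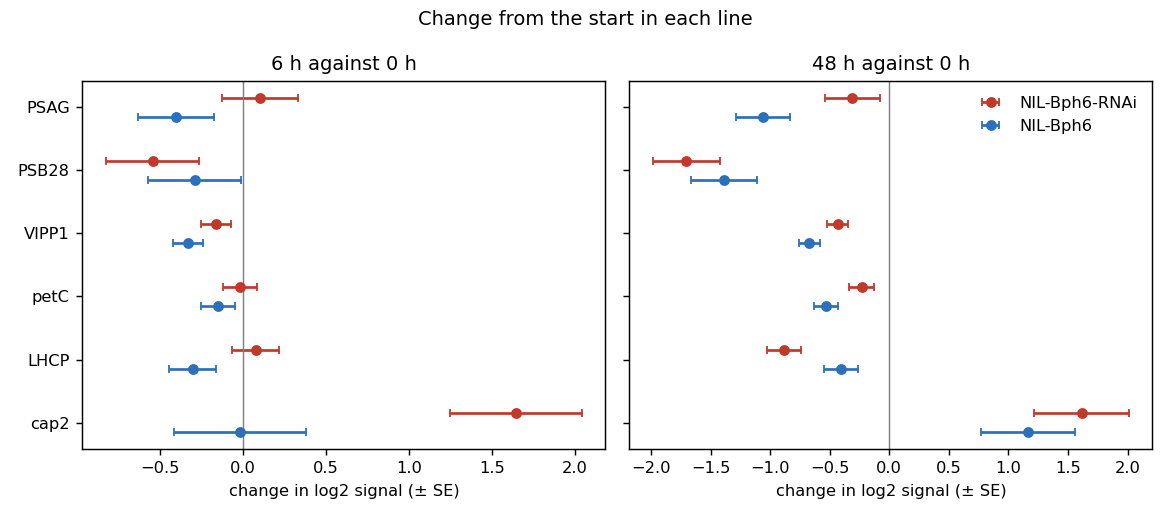
Difference in log2 signal from 0 h (x axis, ± SE) for each of the 6 genes (y axis), after 6 h on the left and 48 h on the right, with NIL-Bph6-RNAi in red above NIL-Bph6 in blue. At 48 h all points but those of cap2 lie left of 0, from -1.70 for PSB28 in NIL-Bph6-RNAi to -0.23 for petC in that line.

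Ordered by group mean, the genes fell into different patterns. For PSAG, petC and VIPP1 the lowest group was NIL-Bph6 at 48 h, with no overlap with the next, NIL-Bph6-RNAi at 48 h. For PSB28 the lowest groups were the same, but they overlapped each other, and the gap was above them, 0.97 to NIL-Bph6 at 6 h. For LHCP the lowest was NIL-Bph6-RNAi at 48 h, which overlapped with NIL-Bph6 at 48 h, and the highest was NIL-Bph6-RNAi at 6 h. For cap2 the order split once, with a gap of 1.06 between NIL-Bph6-RNAi at 0 h and NIL-Bph6 at 48 h. Other neighbouring groups overlapped, except for PSB28 between NIL-Bph6-RNAi and NIL-Bph6 at 0 h and for LHCP between NIL-Bph6-RNAi and NIL-Bph6 at 0 h and between NIL-Bph6 at 6 h and at 0 h.

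The question of whether the lines responded differently was put to the difference of the 2 responses, that of NIL-Bph6-RNAi minus that of NIL-Bph6. At 48 h this was 0.75 ± 0.32 for PSAG, 0.30 ± 0.14 for petC, 0.24 ± 0.13 for VIPP1, 0.45 ± 0.56 for cap2, -0.31 ± 0.40 for PSB28 and -0.48 ± 0.20 for LHCP. The sign turned for cap2 without NIL-Bph6 replicate 3 at 0 h, at -0.04, and for PSB28 without NIL-Bph6-RNAi replicate 3 at 48 h, at 0.03. At 6 h it was 1.66 ± 0.56 for cap2, 0.50 ± 0.32 for PSAG, 0.38 ± 0.20 for LHCP, 0.17 ± 0.13 for VIPP1, 0.14 ± 0.14 for petC and -0.25 ± 0.40 for PSB28. By limma 0 of the 6 were called at 48 h, where 11.2% of all probe sets tested were called, and 0 at 6 h, where 0.00611% were. At an unadjusted p under 0.05 it would be 2 of 6 at 48 h and 1 of 6 at 6 h. Of all 32732 probe sets tested, 8713 were under it at 48 h and 4898 at 6 h, so nothing is read from these counts. With array weights 2 were called at 48 h, PSAG at 1.04 and LHCP at -0.61; under the other settings run none was. Genes called at 48 h against 0 h in 1 line only (PSAG, petC, LHCP and cap2) are thus not shown by the fit as reported to respond differently in the lines. These comparisons share their arrays with those against 0 h.

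Between the lines at each time, 0 of 6 were called at 0 h (1.41% of all probe sets tested). There 0 of 6 also had an unadjusted p under 0.05, against 5180 of all 32732 probe sets tested. At 6 h 2 were called higher in NIL-Bph6-RNAi (0.547% of all probe sets tested) and 0 lower (0.315%), and at 48 h 1 was called higher (4.8%) and 0 lower (8.79%). The count of genes with every NIL-Bph6-RNAi array above every NIL-Bph6 array was 2 at 0 h, 3 at 6 h and 3 at 48 h, against 8.59%, 9.23% and 12.9% of all probe sets tested. At 6 h against 0 h, 1 of 6 was called higher and 0 lower in NIL-Bph6-RNAi (3.7% and 1.61% of all probe sets tested), and 0 higher and 1 lower in NIL-Bph6 (3.52% and 1.6%). At 48 h against 6 h, 0 were called higher and 2 lower in NIL-Bph6-RNAi (3.83% and 4.47%), and 0 higher and 0 lower in NIL-Bph6 (0.196% and 0.648%). In that comparison of NIL-Bph6, 5 of 6 had an unadjusted p under 0.05, against 4184 of all 32732 probe sets tested.

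The 6 genes lay on the same side of their group means on 1 of the 18 arrays only, replicate 3 of NIL-Bph6-RNAi at 6 h, which was above them by 0.22 on average; replicates 1 and 2 of that group were below for 5 genes each. Replicate 3 of NIL-Bph6 at 0 h was 0.51 under its group mean for PSB28 and 0.98 over it for cap2. The profiles of group means, each centred on its own mean, were closest for petC and VIPP1, whose root mean square difference was 0.09 on the log2 scale. Between cap2 and the other 5 it was 0.86 to 1.30.

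Other genes of photosynthesis were taken from lists by function, 31 in all, of which 30 passed the filter. These lists, and all others used below, were also chosen with earlier results of these arrays known. Calls and p-values of the listed genes are therefore given as a description. They are no independent test of the falls reported above. Between 0 h and 48 h, 22 of the 30 fell in NIL-Bph6-RNAi and 20 of 30 in NIL-Bph6, with 0 called higher in either line. Of all probe sets tested, 16.6% were called lower and 16.7% higher in NIL-Bph6-RNAi, and 7.48% and 8.18% in NIL-Bph6. Their median change was -0.57 in NIL-Bph6-RNAi and -0.56 in NIL-Bph6. Of the 12 that act in the light reactions or in thylakoid assembly, 8 fell in each line. The count in NIL-Bph6 was 13 of 30 without replicate 2 at 48 h.

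**Figure D3:**
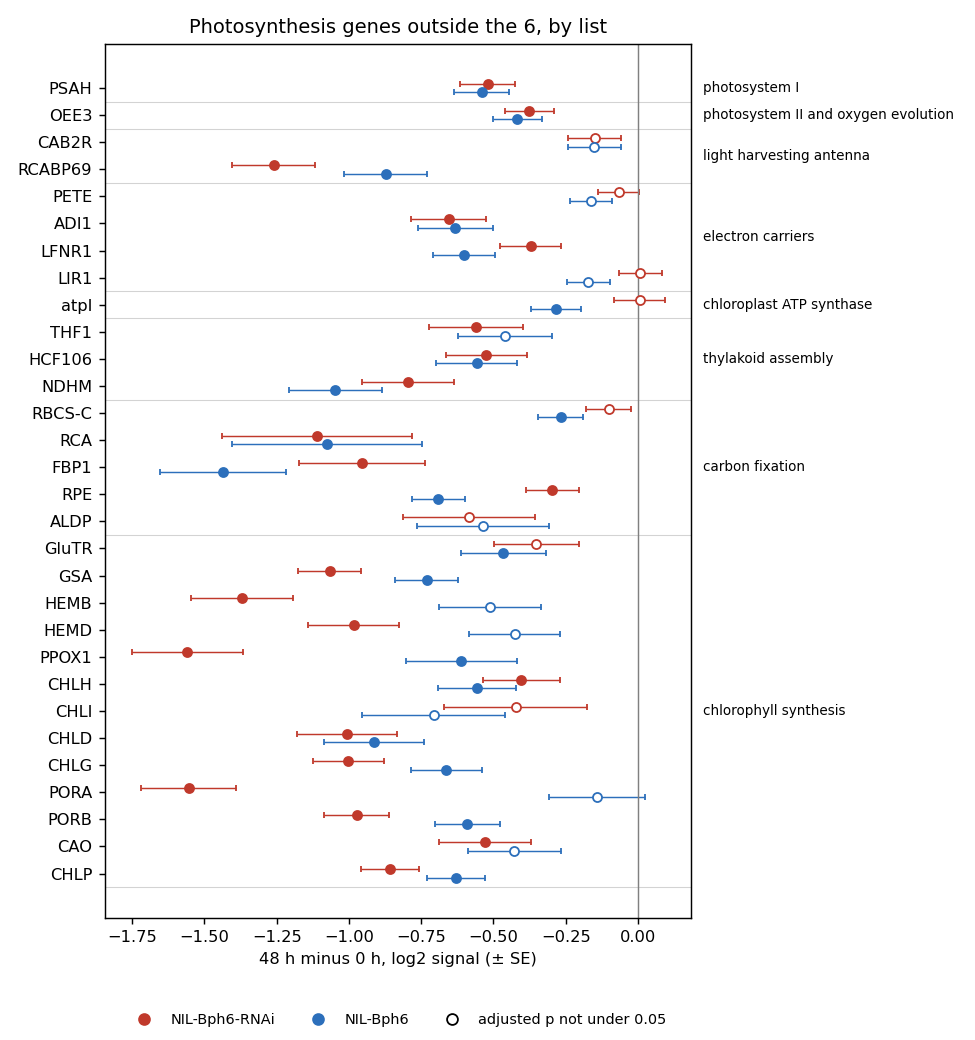
Difference in log2 signal between 48 h and 0 h (x axis, ± SE) for the 30 photosynthesis genes outside the 6 (y axis), grouped by function, with NIL-Bph6-RNAi in red above NIL-Bph6 in blue. Filled points have a limma adjusted p under 0.05; 22 are filled for NIL-Bph6-RNAi and 20 for NIL-Bph6, and every filled point lies left of 0.

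PSAH, a second photosystem I subunit, read 13.69, 13.62 and 13.76 in NIL-Bph6-RNAi at 48 h, against 14.23, 14.29 and 14.12 at 0 h. In NIL-Bph6 it read 13.53, 13.46 and 13.75 at 48 h, against 14.09, 14.11 and 14.17 at 0 h. Every 48 h array was below every 0 h array of its line, and PSAH fell by 0.52 ± 0.09 in NIL-Bph6-RNAi (limma adjusted p = 0.000528) and by 0.54 ± 0.09 in NIL-Bph6 (0.00105). OEE3, of the oxygen-evolving side of photosystem II, fell by 0.38 ± 0.09 in NIL-Bph6-RNAi (limma adjusted p = 0.00284) and by 0.42 ± 0.09 in NIL-Bph6 (0.00318). RCABP69, another chlorophyll a-b binding protein, fell by 1.26 ± 0.14 in NIL-Bph6-RNAi (limma adjusted p = 1.22e-05) and by 0.87 ± 0.14 in NIL-Bph6 (0.000752). The antenna gene CAB2R, at -0.15 in each line, was not called. Its arrays read up to 15.29, at the top of the scale, and saturation was not tested.

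Among electron carriers, ferredoxin (ADI1) fell by 0.65 ± 0.13 in NIL-Bph6-RNAi and by 0.63 ± 0.13 in NIL-Bph6, and ferredoxin-NADP reductase (LFNR1) fell by 0.37 ± 0.11 in NIL-Bph6-RNAi and by 0.60 ± 0.11 in NIL-Bph6. Plastocyanin (PETE) was at -0.07 and -0.16 in those lines and passed the test in neither; like atpI and ADI1 it was bright, with group means of 14.51 to 14.74, and saturation was not tested. NDHM, a subunit of the chloroplast NADH dehydrogenase-like complex, fell by 0.80 ± 0.16 in NIL-Bph6-RNAi and by 1.05 ± 0.16 in NIL-Bph6. HCF106, of the machinery that moves proteins into the thylakoid, fell by 0.53 ± 0.14 in NIL-Bph6-RNAi and by 0.56 ± 0.14 in NIL-Bph6. THF1, needed for thylakoid formation in Arabidopsis, fell in NIL-Bph6-RNAi by 0.56 ± 0.16 and was at -0.46 in NIL-Bph6, where it was not called. The atpI gene, for a subunit of the chloroplast ATP synthase, was at 0.01 in NIL-Bph6-RNAi and fell by 0.28 ± 0.09 in NIL-Bph6. Whether atpI is a nuclear gene was not checked, so its signal may not compare with those of the nuclear genes counted beside it.

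In carbon fixation, 3 of 5 tested genes fell in NIL-Bph6-RNAi (16.6% of all probe sets tested) and 4 of 5 in NIL-Bph6 (7.48%). FBP1, a fructose bisphosphatase, fell by 0.95 ± 0.22 in NIL-Bph6-RNAi and by 1.44 ± 0.22 in NIL-Bph6. Whether FBP1 is the chloroplast form of the enzyme was not checked, so its place in this list is not certain. RCA, the activase of Rubisco, fell by 1.11 ± 0.33 in NIL-Bph6-RNAi and by 1.08 ± 0.33 in NIL-Bph6. RPE, the epimerase of the Calvin cycle, fell by 0.30 ± 0.09 in NIL-Bph6-RNAi and by 0.69 ± 0.09 in NIL-Bph6.

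Of the 13 chlorophyll synthesis genes, 11 fell in NIL-Bph6-RNAi between 0 h and 48 h, with a median of -0.98. In NIL-Bph6 8 fell, with a median of -0.59. Of all probe sets tested, 16.6% were called lower in NIL-Bph6-RNAi and 7.48% in NIL-Bph6. PORA, a protochlorophyllide reductase, read 8.18, 8.29 and 8.11 in NIL-Bph6-RNAi at 48 h, against 9.62, 10.08 and 9.55 at 0 h. In NIL-Bph6 it read 9.19, 8.81 and 9.16 at 48 h, against 9.14, 9.34 and 9.12 at 0 h. It thus fell by 1.55 ± 0.16 in NIL-Bph6-RNAi and was at -0.14 in NIL-Bph6, and the difference of the responses was -1.41 ± 0.23 (limma adjusted p = 0.00432). PPOX1, which makes protoporphyrin, differed by -0.95 ± 0.27 (limma adjusted p = 0.0341), and HEMB, which makes porphobilinogen, by -0.86 ± 0.25 (0.0366). These 3 were the ones called of the 30 in the difference of the responses at 48 h, a share close to the 11.2% of all probe sets tested that were called in it, and leaving out 1 array took the count to between 1 and 4. Of the 12 light reaction genes 0 were called by limma in that difference. An unadjusted p under 0.05 was reached by 1 of the 12, against 8713 of all 32732 probe sets tested.

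Of 4 chlorophyll breakdown genes, 3 rose and 1 fell in NIL-Bph6-RNAi between 0 h and 48 h, and 0 rose and 1 fell in NIL-Bph6. Of all probe sets tested, 16.7% were called higher and 16.6% lower in NIL-Bph6-RNAi, and 8.18% and 7.48% in NIL-Bph6. SGR, the Stay-Green protein that starts the breakdown, rose by 1.44 ± 0.27 between 0 h and 48 h (limma adjusted p = 0.000709), RCCR1 rose by 0.69 ± 0.15 (0.00177) and NYC1, a chlorophyll b reductase, rose by 0.55 ± 0.14 (0.00642). NOL, the partner of NYC1, fell by 0.60 ± 0.12 (limma adjusted p = 0.000995). In NIL-Bph6 NOL also fell, by 0.40 ± 0.12 (limma adjusted p = 0.0282), and SGR, at 0.48, did not pass the test. For NYC1 the responses differed by 0.66 ± 0.20 (limma adjusted p = 0.0428), and the lines at 48 h by 0.66 ± 0.14.

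**Figure D4:**
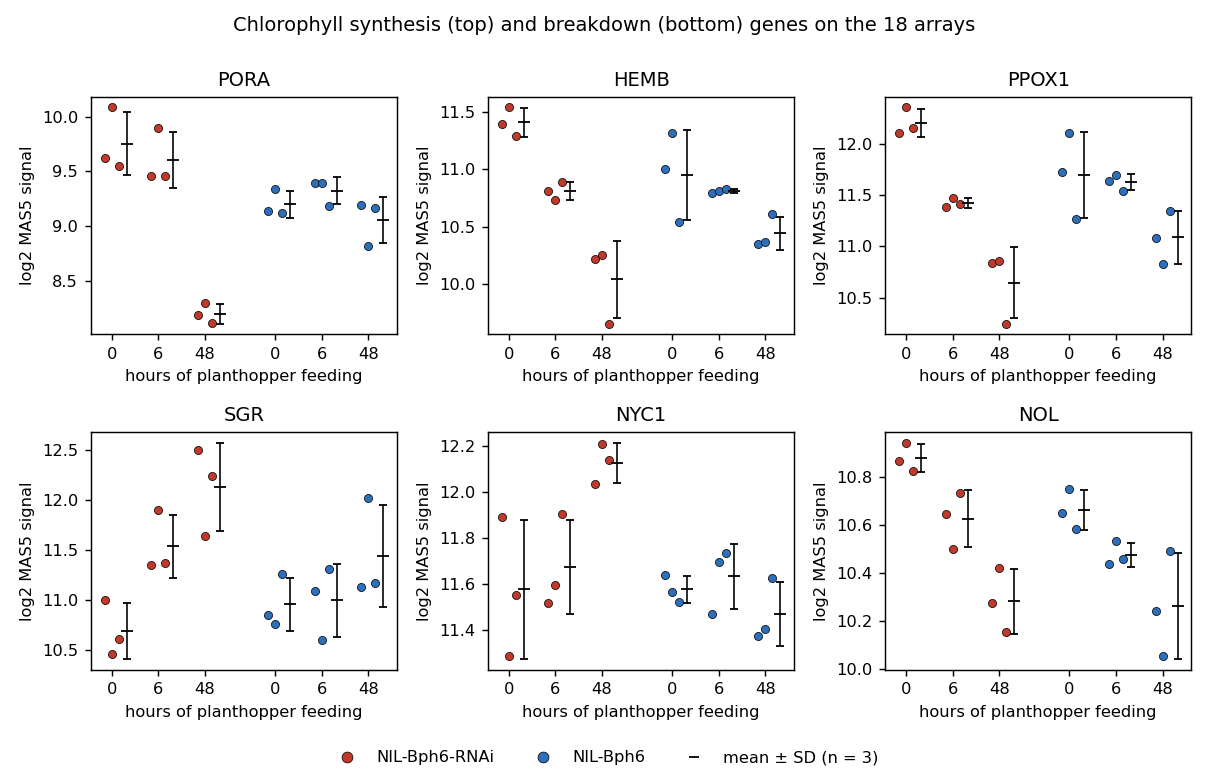
Log2 MAS5 signal (y axis, a different range in each panel) of 3 chlorophyll synthesis genes (top) and 3 chlorophyll breakdown genes (bottom) on the 18 arrays, by hours of feeding (x axis), with NIL-Bph6-RNAi in red on the left and NIL-Bph6 in blue on the right. Short bars are the mean ± SD of 3 arrays; PORA at 48 h lies at 8.11 to 8.29 in NIL-Bph6-RNAi and at 8.81 to 9.19 in NIL-Bph6.

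At 6 h against 0 h few of the 30 were called. Of all probe sets tested, 1.61% were called lower in NIL-Bph6-RNAi and 1.6% in NIL-Bph6. In NIL-Bph6-RNAi 4 fell, all in chlorophyll synthesis, among them PPOX1 by 0.78 ± 0.19, GSA by 0.60 ± 0.11 and HEMD by 0.56 ± 0.16, and leaving out any 1 of the 6 arrays left 1 or 2. In NIL-Bph6 2 fell, PORB by 0.44 ± 0.11 and CHLP by 0.40 ± 0.10, and leaving out 1 array left 0 to 2. Between 6 h and 48 h 11 fell in NIL-Bph6-RNAi, or 5 without replicate 3 at 48 h and 7 without replicate 2 at 6 h. Of all probe sets tested, 4.47% were called lower there. In NIL-Bph6 2 fell, PSAH and RPE, where 0.648% of all probe sets tested were called lower. The count was 11 without replicate 3 at 48 h and 0 without any 1 of the other 5 arrays.

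Between the lines, 0 of the 30 were called by limma at 0 h and 0 at 6 h. Of all probe sets tested, 1.41% were called at 0 h, and 0.547% higher and 0.315% lower at 6 h. An unadjusted p under 0.05 was reached by 7 of the 30 at 0 h and 11 at 6 h, against 5180 and 3554 of all 32732 probe sets tested. At 48 h atpI, RPE and FBP1 were higher in NIL-Bph6-RNAi, by 0.32 ± 0.09, 0.41 ± 0.09 and 0.71 ± 0.22, and PORA and HEMD were lower, by 0.86 ± 0.16 and 0.51 ± 0.16, against 4.8% higher and 8.79% lower among all probe sets tested. Leaving out 1 array left 1 to 5 higher and 1 to 3 lower. These lie beside the higher petC in NIL-Bph6-RNAi at that time.

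The 3 listed regulators of photosynthesis genes, GLK1, GLK2 and SIG2B, gave 0 calls by limma in any of the 11 comparisons. At most 1 had an unadjusted p under 0.05 in each. Even in NIL-Bph6-RNAi at 48 h against 0 h, only 16.7% of all probe sets tested were called higher and 16.6% lower. Nothing is therefore read from 0 calls among 3 genes. GLK2 averaged 11.07 in NIL-Bph6-RNAi and 11.13 in NIL-Bph6 at 48 h. Among 6 clock genes PRR1 rose by 0.48 ± 0.12 and PRR95 by 0.47 ± 0.14 in NIL-Bph6-RNAi between 0 h and 48 h, and PRR37 fell by 0.43 ± 0.14 in NIL-Bph6. In NIL-Bph6 8.18% of all probe sets tested were called higher and 7.48% lower between those times. The clock hour of sampling was not found in the labels, and the part of the clock in the values of the 6 genes was not tested.

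Group means were compared with the mean profile of the 6 over 16395 genes, whose median root mean square difference was 0.35. The nearest named genes were cpdk at 0.06, SAT5 at 0.09, MDAR2 and OEE3 at 0.10, and CHLH and BGLU34 at 0.11. Unnamed genes nearer than these numbered 0 for cpdk, 5 for SAT5, 12 for MDAR2, 14 for OEE3, 21 for CHLH and 32 for BGLU34. The mean profile includes cap2, whose centred mean for NIL-Bph6-RNAi at 6 h was 0.96, against 0.39 for the mean of the 6. Likeness to a mean without cap2 was not computed. For petC the nearest named genes were RPE and LFNR1, both at 0.05, and for VIPP1 they were FTR-B, of ferredoxin-thioredoxin reductase, and HDH, both at 0.05. For PSAG they were CIN4 and SPO11-3, both at 0.09. For PSB28 they were TDC2 at 0.12 and rpl5 at 0.16, and for LHCP they were FH11 at 0.11 and C4 at 0.14. The nearest named genes to cap2, CML15 at 0.31 and METK3 at 0.33, were farther away than those of any other of the 6.

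Other markers moved in the same samples. The summed linear signal of 8 secondary wall and vascular genes was 9385 to 13535 in NIL-Bph6-RNAi at 48 h, against 18496 to 22017 at 0 h, and 13284 to 15408 in NIL-Bph6 at 48 h, against 12513 to 19848 at 0 h; 1 of the 8 was under the filter. For the 22 shoot meristem genes on the array, 8 of them under the filter, it was 4777 to 5585 in NIL-Bph6-RNAi at 48 h, against 4732 to 5603 at 0 h, and 6977 to 8298 in NIL-Bph6 at 48 h, against 4642 to 5110 at 0 h. The single wax gene, KCS20, was at 94.4 to 168 in NIL-Bph6-RNAi at 48 h, against 78.0 to 291 at 0 h, and at 627 to 793 in NIL-Bph6 at 48 h, against 141 to 150 at 0 h. Of 18 commonly used reference genes, 10 fell and 1 rose in NIL-Bph6-RNAi between 0 h and 48 h, with a median of -0.39. In NIL-Bph6 0 fell and 1 rose, with a median of 0.19. Of all probe sets tested, 16.6% were called lower and 16.7% higher in NIL-Bph6-RNAi, and 7.48% and 8.18% in NIL-Bph6. The difference between 3′ and 5′ probe sets of 7 control transcripts, a sign of RNA integrity and of labelling, was 2.09 ± 0.17 in NIL-Bph6-RNAi at 48 h, against 2.39 ± 0.19 at 0 h, and 1.99 ± 0.22 in NIL-Bph6 at 48 h, against 1.78 ± 0.42 at 0 h (SD, n = 3). The part of tissue makeup, scaling or RNA quality in the changes of the 6 genes was not tested beyond fits with other scalings and a fit with that difference between probe sets as covariate, under which every call of the 6 between 0 h and 48 h held.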

How the data were processed

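The deposited values are log2 MAS5 signals per probe set, 1 column per array; per the submitters' processing notes MAS5 was used, with no version given. On the linear scale the mean trimmed by 2% at each end was 500.07 to 500.08 on every array, so the authors' values were already scaled. No further normalization was applied. The 123 control probe sets were removed, and 32732 of 57258 probe sets were kept that exceeded the overall median of 5.78 on at least 3 arrays. limma 3.58.1 (R 4.3.3) was fitted to the means of all 6 groups with a trended variance, over 11 comparisons: the lines at each time, the times within each line and the differences of responses. P-values were adjusted by Benjamini-Hochberg over all kept probe sets, and "called" means under 0.05. Probe sets were named through the platform's probe-to-gene table (22436 with 1 gene, 95 with several, 34850 with none here) and gene names were updated by RefSeq. A gene is read from its brightest probe set. The 6 genes and all lists were chosen with earlier results of these data known. Named among the others are, per list and comparison, at most the 3 called genes with the largest differences, or 4 for breakdown and clock genes; CAB2R and PETE were named after their values were seen. Likeness is the root mean square difference of centred group means, and unnamed genes were passed over. Precision is limited by the 3 arrays a group. The script was checked on simulated data. Figures were drawn with matplotlib 3.10.9. Alternatives were other scalings, filters, variance models, covariates and leaving out each array.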

Additional observations from a re-analysis of the deposited data

Results flagged for a closer look

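Outside the 6, 5 genes differed between the lines in their change from 0 h to 48 h by limma's test of the difference itself, the response of NIL-Bph6-RNAi minus that of NIL-Bph6. In this comparison 11.2% of all probe sets tested were called, so a few calls among the listed genes do not set them apart. These were PORA at -1.41 ± 0.23, PPOX1 at -0.95 ± 0.27 and HEMB at -0.86 ± 0.25 in chlorophyll synthesis, NYC1 at 0.66 ± 0.20 in chlorophyll breakdown, and the clock gene PRR1 at 0.60 ± 0.17 (SE). At 48 h PRR1 read 11.49, 11.70 and 11.92 in NIL-Bph6-RNAi and 11.24, 11.21 and 11.40 in NIL-Bph6, and at 0 h 11.32, 11.05 and 11.31 in NIL-Bph6-RNAi and 11.35, 11.40 and 11.46 in NIL-Bph6 (limma adjusted p = 0.0308 for the difference of the responses). The lists that hold these 5 genes were chosen with earlier results of these arrays known, so the calls are given as a description.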

How the results depend on the processing

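Calls of the 6 genes between 0 h and 48 h held under every alternative run, leaving out each array included, except that with a minimum of 2-fold LHCP and VIPP1 in NIL-Bph6-RNAi and petC and VIPP1 in NIL-Bph6 were no longer called. The calls between the lines and at 6 h were less firm, as given beside them. The calls of LHCP and cap2 between the lines at 6 h, of petC between them at 48 h and of VIPP1 in NIL-Bph6 at 6 h also ended without a filter and without the variance trend, and those of LHCP, cap2 (at 6 h in NIL-Bph6-RNAi too) and VIPP1 at 6 h with the 3′ to 5′ covariate. Further losses were LHCP between the lines at 6 h with median centring (0.68), with the replicate block (0.65) and at 2-fold; petC between them at 48 h with quantile normalization (0.24), array weights (0.29), only the compared groups or 2-fold; cap2 between them at 6 h with only the compared groups; VIPP1 in NIL-Bph6 at 6 h with quantile normalization (-0.30), only the compared groups or 2-fold; and in NIL-Bph6-RNAi at 48 h against 6 h PSB28 with only the compared groups (-1.16) and LHCP at 2-fold. Array weights made further calls of the 6 genes: LHCP between the lines at 0 h (0.31), PSAG in NIL-Bph6 at 6 h against 0 h (-0.63), LHCP (-0.31) and cap2 (1.17) in NIL-Bph6 at 48 h against 0 h, which the stricter filter called too, and PSB28 (-0.99) and VIPP1 (-0.31) in NIL-Bph6 at 48 h against 6 h. The median of the 6 genes between the lines at 0 h was 0.08, and 0.23 with the 3′ to 5′ covariate. Leaving out 1 array, the median lay at 0.11 to 0.42 between the lines at 6 h (all arrays 0.28), at -0.12 to 0.060 for NIL-Bph6-RNAi at 6 h against 0 h (0.03; -0.12 without replicate 3 at 6 h), at -0.49 to -0.18 for NIL-Bph6-RNAi at 48 h against 6 h (-0.34) and at 0.087 to 0.32 for the difference of responses at 48 h (0.27). The median without cap2 was chosen after seeing the data.

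Of the 30 other photosynthesis genes, the following counts moved by over 1.5 times, and the cause was not tested. Between the lines at 0 h, 0 were called higher, but 1 under the stricter filter or with an offset before the logarithm, 5 with array weights, and 0 to 1 leaving out 1 array. At 48 h, 3 were called higher, but 5 with median centring, 1 without a filter, without the variance trend or with only the compared groups, 0 at 2-fold, and 1 to 5 leaving out 1 array; 2 were called lower, but 1 with median centring, without a filter, without the trend, with the replicate block or with only the compared groups, 0 at 2-fold, and 1 to 3 leaving out 1 array. For NIL-Bph6-RNAi at 6 h against 0 h, 4 were lower, but 7 with median centring or the stricter filter, 2 without a filter or with the 3′ to 5′ covariate, 1 without the trend, 9 with array weights, 0 at 2-fold, and 1 to 2 leaving out 1 array. For NIL-Bph6-RNAi at 48 h, 22 were lower against 0 h, but 8 at 2-fold, and 11 against 6 h, but 2 at 2-fold, 3 with only the compared groups and 5 to 11 leaving out 1 array. For NIL-Bph6 at 6 h against 0 h, 2 were lower, but 11 with array weights, 0 without a filter, without the trend, with the covariate, at 2-fold or with only the compared groups, and 0 to 2 leaving out 1 array. For NIL-Bph6 at 48 h against 0 h, 20 were lower, but 3 at 2-fold, 13 with only the compared groups and 13 to 21 leaving out 1 array. Against 6 h, 2 were lower, but 6 with quantile normalization or array weights, 7 with the stricter filter, 1 with median centring, 0 without a filter, without the trend, with the replicate block, with the covariate, at 2-fold or with only the compared groups, and 0 to 11 leaving out 1 array. In the difference of responses at 48 h, 3 were lower, but 1 without the trend, with the covariate, at 2-fold or with only the compared groups, 6 with array weights and 1 to 4 leaving out 1 array; 0 were higher, but 1 with quantile normalization, the stricter filter, array weights or only the compared groups.

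Deviations of samples with the same replicate number in different groups had a mean correlation of 0.00 (from -0.25 to 0.28 over 45 pairs). For samples with different numbers it was -0.0013 (from -0.25 to 0.18 over 90 pairs). Whether samples of the same number were handled together is not given by the labels and was not tested. With the replicate block, 22 of the 30 were lower in NIL-Bph6-RNAi and 19 in NIL-Bph6 at 48 h against 0 h. Over all probe sets, the count called at 48 h against 0 h was 9537 to 11002 in NIL-Bph6-RNAi (10911 as reported; 5395 at 2-fold) and 3537 to 11378 in NIL-Bph6 (5124; 2106 at 2-fold) across 11 settings. Between the lines it was 177 to 5247 at 0 h (460), 191 to 727 at 6 h (282) and 2808 to 4873 at 48 h (4449), and for the difference of responses at 48 h 1796 to 6634 (3676). No scaling moved the median of all probe sets by over 0.1.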
